A study of Mus musculus with 4 samples.

Results

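Type I interferon response genes were followed in whole-genome bisulfite sequencing of mouse microglia, the resident macrophages of the brain. The set comprised 39 named genes that encode the receptor for type I interferon, sensors of viral nucleic acid and antiviral effectors. Genes of the IRF and STAT families were left out of it. Every region and every site in the authors' tables that lay inside one of these genes or within 10000 bp of it was taken. All 39 genes were found in GENCODE release M21 on GRCm38 (mm10), 38 as protein-coding genes and Mx2 as a polymorphic pseudogene. Their windows held 8 of 3389 regions and 318 of 269406 listed sites.

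Bisulfite leaves methylated cytosine intact and converts the unmethylated base, so the unconverted share of reads gives the methylation level, here from 0 to 1. The 4 samples were untreated FACS-sorted microglia of C57BL/6J mice at 3 months of age, 2 labelled WT and 2 labelled IRF8KO. IRF8KO cells lack the transcription factor IRF8. The labels do not say how Irf8 was inactivated, whether its loss was limited to some cells, or whether animals were pooled. Each library was built from 50 ng of DNA from 40000 cells. The authors' tables give 1 fitted level per group and no value per sample, so no difference can be set against the spread between samples, and read depth is unknown. Their headers number the groups and give no genotype. Levels are therefore reported for a first and a second group, and "higher" and "lower" refer to the first group against the second. Which of them is IRF8KO cannot be told apart from the sources used here.

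A listed site is a cytosine position that the authors retained with a posterior probability of at least 0.95. The false discovery rate (FDR) given for a site is the authors' own, over all positions they tested. A region is a stretch that the authors called from neighbouring cytosines, not all of which are listed sites. The tables hold no levels outside listed positions, so the cell type could not be checked against its markers. Of marker genes of microglia, 3 of 7 had a region (P2ry12, Sall1, Cx3cr1), as did 2 of 6 of border macrophages (Mrc1, Cd163), 1 of 3 of monocytes (Plac8) and none of 8 of lymphocytes, neurons, astrocytes and oligodendrocytes, against 9.54% of all genes counted below. Of those last 8 genes, 7 had a listed site and 4 a site with an FDR under 0.05. The part of other cell types in the values below was not tested.

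Type I interferon binds a receptor made of IFNAR1 and IFNAR2. The kinases JAK1 and TYK2 then pass the signal to a nuclear complex that holds IRF9 and binds the interferon-stimulated response element (ISRE) in the promoters of response genes. IRF8 belongs to the same family of factors as IRF9, and with an ETS factor such as PU.1 it binds a composite element. Microglia raise this set of genes in viral infection, in ageing and in disease.

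The ISRE core (GAAA, any 2 bases, GAAA) was searched on both strands in RefSeq promoters on GRCm38.p6, from 250 bp before to 50 bp after a transcript start. It was present in 15 of the 30 members with such a promoter, against 4.02% of 25748 genes, and the other 9 members had no promoter to search. Stretches upstream of 3 starts are shown because they hold the core (capitals) and no listed site. They belong to Isg15, the ubiquitin-like modifier, to Ifit1, which binds viral RNA lacking host-type caps, and to Oas3, an oligoadenylate synthetase.
Isg15, chr4:156200865-156200906, minus strand: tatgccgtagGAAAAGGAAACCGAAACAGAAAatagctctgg
Ifit1, chr19:34640775-34640823, plus strand: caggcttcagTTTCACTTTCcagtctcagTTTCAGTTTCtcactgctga
Oas3, chr5:120777715-120777744, minus strand: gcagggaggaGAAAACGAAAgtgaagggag
The Isg15 stretch holds 3 overlapping cores and 2 CpGs, and the Oas3 stretch 1 core and 1 CpG. The Ifit1 stretch holds 2 cores and no CpG, and so no reference CpG at which methylation could be read.

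Listed sites were about as rare at the RefSeq starts of the 30 members with a promoter as at those of all genes. Within 1000 bp of a RefSeq start, 2 of the 30 members (Ifitm3 and Trim25) had a listed site, against 5.08% of all genes. Trim25 also had a region that lies partly within that distance, against 0.462% of all genes with a region there. Mx1, Mx2 and Rtp4 had no RefSeq promoter to search. Clusters of listed sites at these 3 and at Trim30a lay within 1000 bp of a GENCODE transcript start. The lowest FDR was 3.17e-05 in those of Mx1 and 1.90e-04 in that of Trim30a. At Rtp4 and Trim30a this start is internal, and the clusters lie 82117 and 53044 bp past the outermost start. No share of all genes is given for GENCODE starts, so these members have no background. Ifitm3 was the only member with listed sites inside the promoter window itself, with 5, and its window also holds 2 ISRE cores, 2 and 19 bp past the start.

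A region was present at 6 of the 39 members (15.4%), against 9.54% of all 20808 autosomal genes counted (protein-coding genes and Mx2). For each member, the 500 protein-coding genes nearest in length gave a mean of 7.39%, which corresponds to 2.88 members. The 6 were Ifnar2, Rtp4, Mx1, Trim25, Oas2 and Oas3. Oas2 and Oas3 share their only region, so that 5 loci were involved. When each region was given to its nearest gene only, 5 members remained, or 1 fewer, against 8.07% of all genes and 5.89% of those of like length. Only Ifnar2 and Rtp4 had a region with a site at an FDR under 0.05, a count for which no share of all genes is given. Regions higher in the first group lay at 4 members (background 5.38%) and lower ones at 2 (background 4.86%).

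A listed site was present at 24 members (61.5%), against 64.1% of all genes and 60.9% of genes of like length. A site with an FDR under 0.05 was present at 8 members (20.5%), against 30.9% and 25.3%. Both shares lay at or below those of genes in general. The 8 members were Ifnar2, Rtp4, Mx1, Usp18, Trim30a, Eif2ak2, Herc6 and Oas2. Of the 24 members with a listed site, 9 had only higher sites, 7 only lower sites and 8 both. Higher listed sites were found at 17 members (background 47.9%) and lower ones at 15 (background 41%). With an FDR under 0.05, 5 members had a higher site (background 20.6%) and 5 a lower one (background 16.5%).

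**Figure D1:**
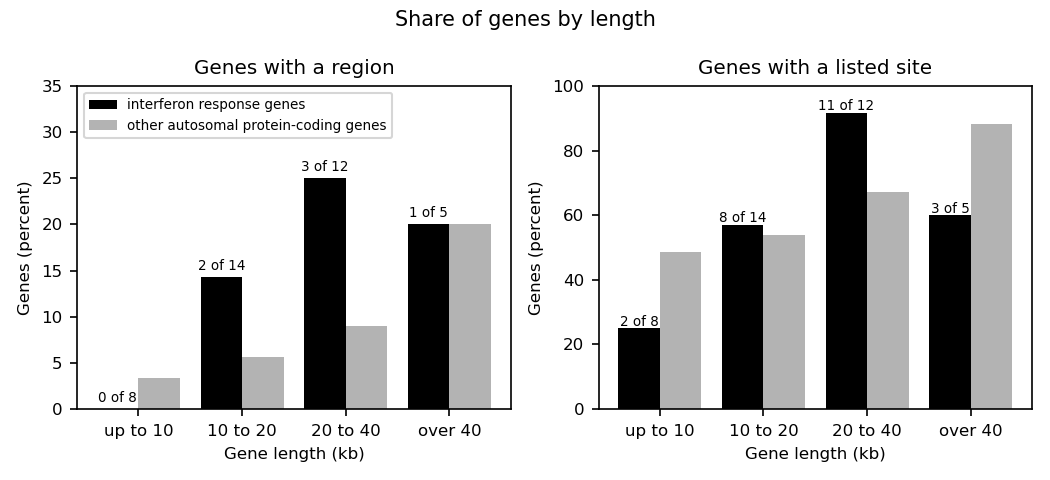
Share of genes (y axis, percent) with a region (left) or a listed site (right) within 10000 bp, by gene length in kb (x axis), for the 39 interferon response genes (black) and all other autosomal protein-coding genes (grey), with no error bars. Between 20 and 40 kb, 3 of 12 members had a region against 9.04% of genes and 11 of 12 a listed site against 67.1%; up to 10 kb none of 8 members had a region and 2 of 8 a listed site, against 48.6%. Over 40 kb, 1 of 5 members had a region against 20.1% and 3 of 5 a listed site against 88.3%.

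No listed site lay at 15 members: Ifih1, Dhx58, Oas1a, Oasl1, Oasl2, Ifit1, Ifit3, Gbp2, Ifitm1, Ifitm2, Isg15, Parp9, Ifi35, Xaf1 and Sp100. Their windows held an estimated 330 to 1495 tested positions each, against 474 to 1978 for members with a listed site, so positions were tested at all of them. Their median length was 11266 bp against 23384 bp for the other 24, but the lengths overlapped. Sp100 (60011 bp) and Ifih1 (50458 bp) are among the longest members, and the short Ifitm3 (1185 bp) and Bst2 (3202 bp) did have listed sites.

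The 318 listed sites formed 54 clusters within 500 bp, of which 30 were higher throughout, 23 lower throughout and 1, at Herc6, mixed. Of the sites, 226 were higher (71.1%, exact binomial 95% interval 65.7 to 76, counting error only), against 61.9% of all listed sites. The interval takes sites as independent, which sites of the same cluster are not, so it is too narrow. By cluster the share was 55.6% (interval 41.4 to 69.1), against 65.4% of all clusters. The excess of higher sites was thus not seen when each cluster counted once. Ifnar2, Rtp4, Ifnar1 and Ifitm3 held 193 of the 318 sites (60.7%). The median absolute difference in the authors' deposited table was 0.317 at members and 0.329 over all listed sites, with a median standard error (SE) of 0.106 and 0.103. Of the members' sites 12.9% had an FDR under 0.05, against 18.7% of all listed sites. Neighbouring positions share a fitted value: the 318 sites held 142 distinct differences. Sites also share their fitted dispersion, the term for spread between samples. The commonest value of a group, in at least 1 of the 2 groups, was given to 120 of the 318 sites (37.7%), against 53.6% of all listed sites. It was given to 33 of the 41 members' sites with an FDR under 0.05 (80.5%), against 65.2% of all such sites, and its part in those calls was not tested.

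**Figure D2:**
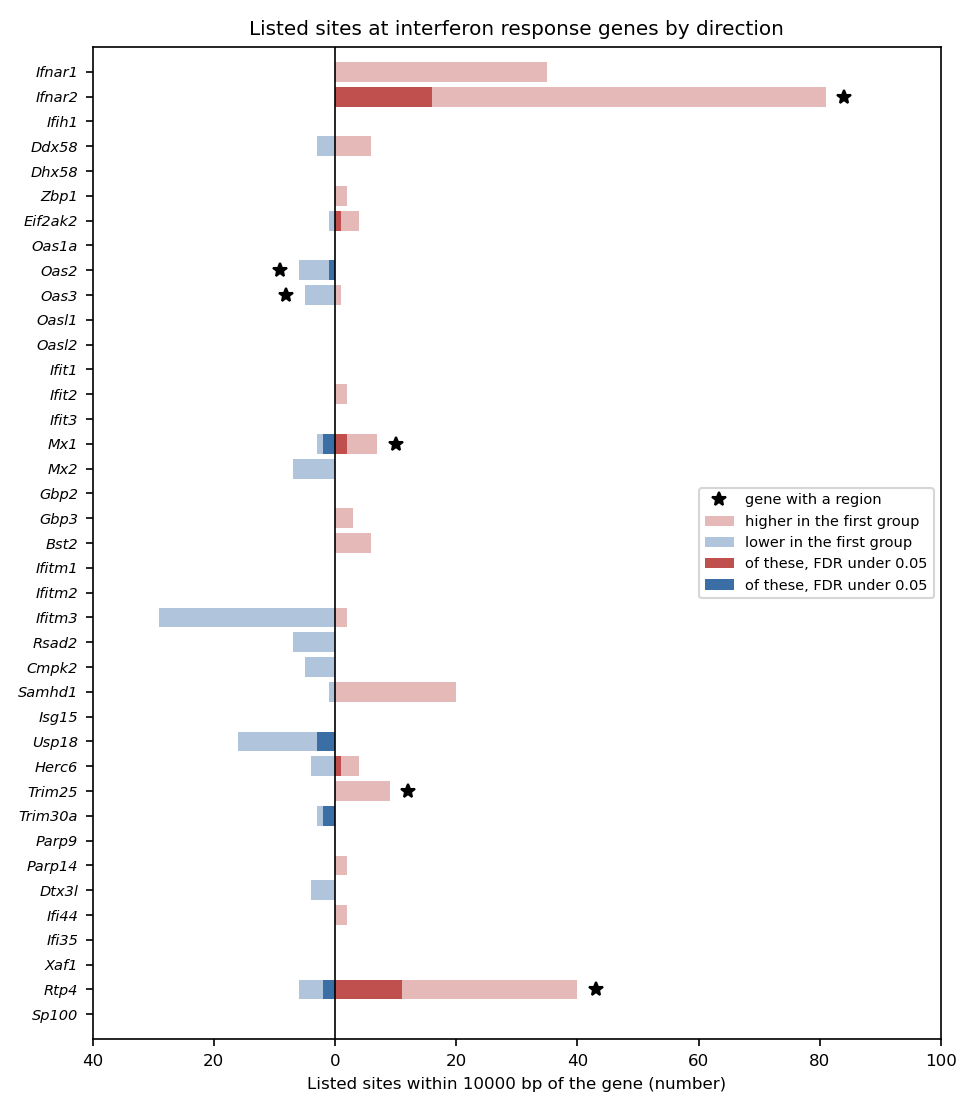
Number of listed sites within 10000 bp of each of the 39 members (x axis), higher in the first group to the right (red) and lower to the left (blue), with sites of FDR under 0.05 in full colour and stars for the 6 genes with a region. Ifnar2 has 81 sites, all higher, and Ifitm3 has 31, of which 29 are lower; 15 genes have none.

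Of the receptor genes, Ifnar2 had sites past the threshold and Ifnar1 had none. All 35 listed sites at Ifnar1 and all 81 at Ifnar2 were higher in the first group. Ifnar2 (ENSMUSG00000022971.18, chr16:91372783-91405589, plus strand) encodes the subunit that binds interferon most tightly, and it had 3 regions. The first lies in an intron 3906 bp from the gene start, and in the authors' deposited table it had a level of 0.760 in the first and 0.382 in the second, a difference of 0.377. The other regions lie 2406 and 2587 bp past the end of Ifnar2, in an intron of Il10rb, the next gene, which encodes a subunit of the receptors for IL-10 and interferon lambda. Their levels in the authors' deposited table were 0.537 against 0.178 and 0.480 against 0.129. The 3 regions are shown because they hold most of the called sites at the receptor, with reference CpGs in capitals (plus strand).
Ifnar2 intron, chr16:91376621-91376758: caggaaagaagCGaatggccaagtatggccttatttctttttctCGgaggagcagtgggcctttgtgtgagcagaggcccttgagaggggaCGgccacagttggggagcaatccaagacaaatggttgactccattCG
Il10rb intron, chr16:91407995-91408113: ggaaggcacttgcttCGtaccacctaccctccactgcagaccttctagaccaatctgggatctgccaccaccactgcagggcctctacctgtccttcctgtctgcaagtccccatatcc
Il10rb intron, chr16:91408176-91408257: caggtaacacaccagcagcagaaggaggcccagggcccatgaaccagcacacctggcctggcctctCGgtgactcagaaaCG
The intronic Ifnar2 region holds a match to the ISRE core on the minus strand. It was the only 1 of the 8 regions to do so, against 4.84% of all 3389 regions. Within 150 bp of the middle of a region, the core was found at 3 of the 8 (1 at Ifnar2 and both at Rtp4), against 5.31% of all. The windows of both Rtp4 regions overlap, so the same match may be counted at both.

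The authors count 9, 6 and 7 cytosines in these regions, and the printed sequences hold 4, 1 and 2 CpGs. Of the 81 listed sites at Ifnar2, 16 had an FDR under 0.05, of which 3 lay in the gene and 13 downstream of it. The lowest was at 91408527, a reference CpG 2938 bp past the gene, where the authors' deposited table gives 0.587 against 0.162, a difference of 0.425 (SE 0.0754, FDR 7.47e-05). At Ifnar1 (chr16:91485238-91507441) the 35 sites fell within 429 bp that touch coding sequence. Their median level in the authors' deposited table was 0.768 against 0.478, with a lowest FDR of 0.863, so none of them was past the threshold.

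Rtp4 had the largest differences among the members' regions. It encodes an interferon-induced receptor transporter protein with a zinc finger that acts on G protein-coupled receptors and on viral RNA. GENCODE gives it (ENSMUSG00000033355.6) a span of 93932 bp, chr16:23520291-23614222 on the plus strand, because of 1 long transcript. Other transcripts start near its 3' end. The regions lie 1163 and 1359 bp past the nearest of these starts, in an intron, and 90797 and 90993 bp past the gene's outermost start. The authors' deposited table gives levels of 0.662 against 0.242 for the first, with 4 cytosines, and of 0.689 against 0.260 for the second, with 16. Their differences of 0.420 and 0.429 were above the median of all regions, 0.405, which held for none of the other 6. The first group was high and the second low throughout the cluster of 37 sites around them, where the authors' deposited table gives differences of 0.292 to 0.476.
Rtp4 intron, chr16:23611039-23611138, plus strand: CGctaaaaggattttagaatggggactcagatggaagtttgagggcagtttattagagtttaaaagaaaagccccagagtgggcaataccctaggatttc
Rtp4 intron, chr16:23611190-23611378, plus strand: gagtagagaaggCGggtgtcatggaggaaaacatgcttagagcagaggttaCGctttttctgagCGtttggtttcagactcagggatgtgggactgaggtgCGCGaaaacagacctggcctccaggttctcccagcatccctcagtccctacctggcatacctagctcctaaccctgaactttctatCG
The second sequence, shown with its 6 CpGs in capitals, is the member region with most CpGs. It held 10 of the 13 sites at Rtp4 with an FDR under 0.05. The lowest FDR was 0.00601 at 23611366, for which the authors' deposited table gives 0.701 against 0.259 (SE 0.0954). That position lies outside any CpG of the reference. At a reference CpG the lowest was 0.0123, at 23611377. In the other direction, 2 sites 7325 and 7338 bp past the gene were lower, with 0.637 against 0.922 and an FDR of 0.0454 in the authors' deposited table. These 2 also lie outside reference CpGs.

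Mx1 had listed sites in both directions around its start. Mx1 (ENSMUSG00000000386.15, chr16:97447035-97462907, minus strand) encodes a dynamin-like GTPase that blocks influenza viruses, and C57BL/6 mice carry a defective allele of it. Its region lies 1298 bp upstream of the start, and the authors' deposited table gives 0.853 against 0.538 for it. No site in that region had an FDR under 0.05. Inside the gene, a cluster of 3 sites 423 bp from the start was lower, with 0.557 against 0.893 in the authors' deposited table (lowest FDR 8.66e-04). Its 2 sites with an FDR under 0.05 lie outside reference CpGs. A further 1571 bp from the start, in an intron, both positions of 1 CpG were higher. Their level in the authors' deposited table was 0.842 against 0.295, a difference of 0.547 (SE 0.0940, FDR 3.17e-05 at 97461337). This was the largest difference of any listed site at a member. It rests on 2 adjacent positions with the same fitted value.
Mx1 region, chr16:97464205-97464295, plus strand: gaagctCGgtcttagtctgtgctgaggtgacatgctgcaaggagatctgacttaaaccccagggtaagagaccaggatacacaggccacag
Mx1 intron, chr16:97461317-97461357, plus strand: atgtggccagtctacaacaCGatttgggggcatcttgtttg
The region's only CpG is among its first bases, and none of its 4 listed sites falls on it. The single CpG of the intronic stretch is the one that differed most. Mx2, the neighbouring GTPase gene, had 7 listed sites, all lower, with differences in 2 clusters led by -0.33 and -0.40 and a lowest FDR of 0.0972 in the authors' deposited table.

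**Figure D3:**
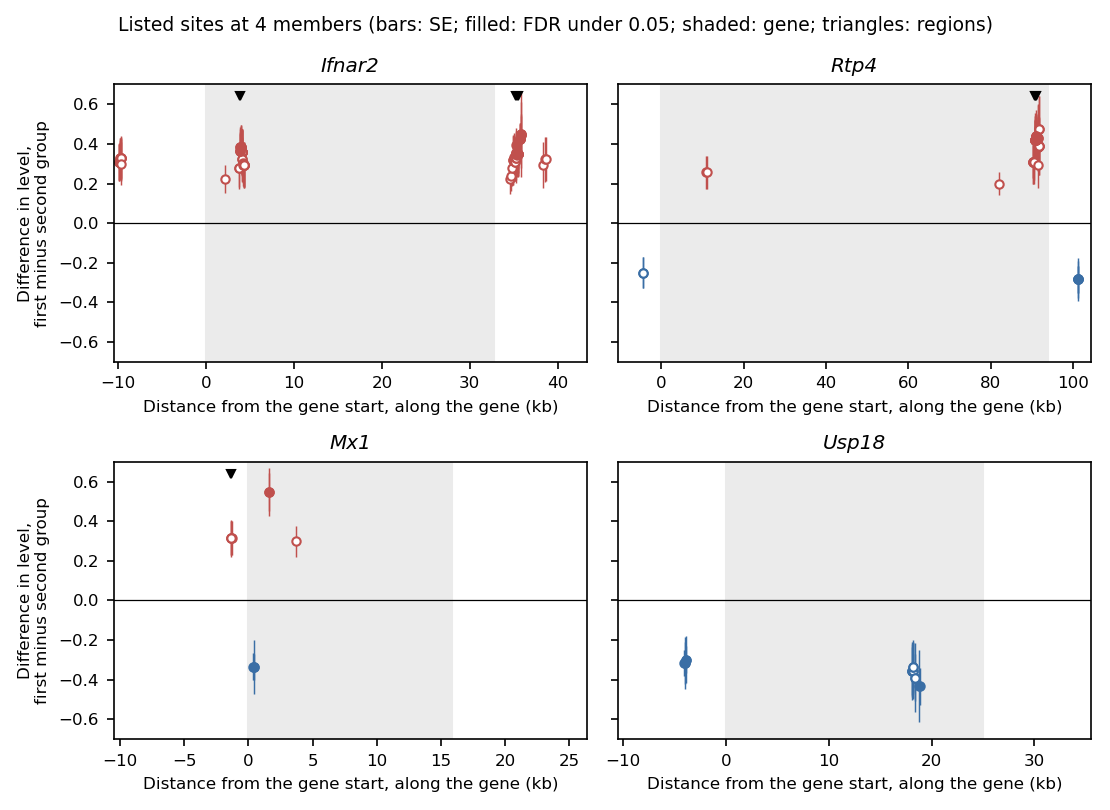
Difference in methylation level, first minus second group (y axis), of each listed site against its distance from the gene start in kb (x axis) at Ifnar2, Rtp4, Mx1 and Usp18; red points are higher, blue lower, filled points have an FDR under 0.05, bars are the authors' standard errors, shading is the gene and triangles are regions. The 81 sites at Ifnar2 all lie above 0, the 16 at Usp18 all lie below, and Mx1 has sites on both sides.

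The genes of the ISG15 system went in different directions. Trim25, a ubiquitin ligase that acts on the sensor RIG-I, had a region in an intron. Its middle lies 1042 bp from the GENCODE start (gene chr11:88999376-89020293). For this region the authors' deposited table gives 0.459 against 0.182. This was the smallest difference among the 8 regions, 0.276, and smaller differences were listed for 2.57% of all regions. Its lowest FDR was 0.198. The region is shown because its 75 bp hold no CpG, so all 5 of its cytosines lie outside reference CpGs.
Trim25 intron, chr11:89000381-89000455, plus strand: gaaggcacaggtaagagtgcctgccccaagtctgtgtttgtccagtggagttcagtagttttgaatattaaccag
Usp18, the protease that removes ISG15 and restrains signalling at IFNAR2, had 16 listed sites, all lower in the first group (chr6:121245906-121270917). A cluster of 5 lies 3925 bp upstream of its start, and the authors' deposited table gives 0.631 against 0.948 at its site of lowest FDR (SE 0.0670, FDR 0.00416). A second cluster of 11 lies in an intron, led by 0.515 against 0.947 (FDR 0.00633) in the authors' deposited table. The leading site of each cluster lies outside any CpG of the reference. In the intron it is the only 1 of the 11 past the threshold. Upstream, a position at a reference CpG also passed it, with an FDR of 0.0208. Neither cluster was joined into a region.

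The upstream cluster of Usp18 was the only 1 of the 54 clusters with an ISRE core within 50 bp of its middle, against 1.72% of all 108060 clusters. The wider cluster at Ifitm3, whose promoter window holds 2 cores, has its middle farther from them. The Usp18 cluster also held the composite ETS-IRF element (GGAA, any 2 bases, GAAA), which contains the ETS core GGAA. Both stretches are shown with the motif in capitals (plus strand, so that the composite element reads on the minus strand).
Usp18 upstream, chr6:121241880-121241919: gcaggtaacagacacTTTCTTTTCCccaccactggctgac
Usp18 upstream, chr6:121241927-121241966: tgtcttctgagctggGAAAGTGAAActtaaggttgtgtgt
The nearest listed sites lie 21 and 34 bp from the 2 matches. Clusters at Mx2 and Trim30a held the composite element too, and all 3 clusters with it were lower. At Mx2 the match lies 23 bp from the nearest listed site. At Trim30a it lies 135 bp from the nearer of 2 listed sites that span 341 bp. Over the series the element was present in 2.66% of lower clusters and 1.06% of higher ones. None of the 8 regions at members held it, against 9.38% of all regions. The STAT palindrome TTCNNNGAA, the other motif searched, was found in 2 of the 54 clusters, against 4.52% of all.

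Among the other ligases, Trim30a, a TRIM protein that dampens Toll-like receptor signalling, had 3 listed sites, all lower. Its lowest FDR was 2.26e-07, at an intronic position outside any CpG of the reference, with 0.320 against 0.589 in the authors' deposited table (SE 0.0402). A second site, at a reference CpG, had 0.748 against 0.965 (FDR 1.90e-04) in the authors' deposited table. Herc6, the ligase that attaches ISG15 in mice, had 8 listed sites in 6 clusters, 4 higher and 4 lower. The only 1 past the threshold lies 3144 bp upstream, at 0.947 against 0.747 (SE 0.0387, FDR 6.88e-04) in the authors' deposited table. Isg15 itself had none.

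The OAS family, enzymes whose product activates RNase L against viral RNA, had the only region lower in the first group. It lies in an intron of Oas2 (chr5:120730333-120749853, minus strand), 5308 bp from its start and 8518 bp past the end of Oas3. In the authors' deposited table its level was 0.578 against 0.901, a difference of -0.32, with a lowest FDR of 0.0938. Of its bases 74.3% are soft-masked as repeats in the reference.
Oas2 intron, chr5:120744511-120744580, plus strand: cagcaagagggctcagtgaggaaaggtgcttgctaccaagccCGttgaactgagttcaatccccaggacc
Oas2 also had a single site with an FDR of 0.0414, again lower, at 0.666 against 0.882 in the authors' deposited table. It lies outside any CpG of the reference. Oas1a, Oasl1 and Oasl2 had no listed site.

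**Figure D4:**
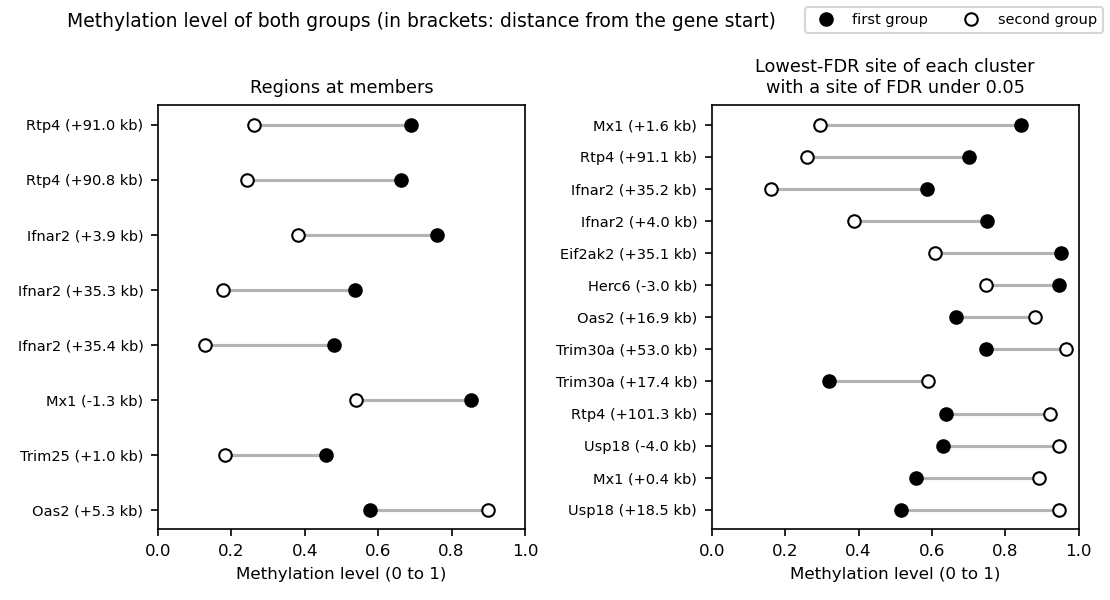
Methylation level (x axis, 0 to 1) of the first (filled) and second (open) group for the 8 regions (left) and for the lowest-FDR site of each of the 13 clusters with a site of FDR under 0.05 (right), without error bars; the distance of the region or of the cluster's middle from the gene start is in brackets. On the left 7 regions are higher in the first group and the Oas2 region is lower, while on the right 6 clusters are higher and 7 lower.

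The sensors showed few differences. Eif2ak2, the kinase PKR that halts translation on double-stranded RNA, had the lowest FDR of any member, 1.32e-08, at 78847411 on chromosome 17. The authors' deposited table gives 0.951 against 0.607 there (SE 0.0479). That position lies 5153 bp past the end of Eif2ak2, in a UTR of Gpatch11, and is the only site of its cluster past the threshold. Its dispersions are the commonest values in both groups. The position on the other strand of the same CpG has the same levels, other dispersions, an SE of 0.112 and an FDR of 0.579 in the authors' deposited table. The commonest dispersions of both groups were also given to the sites of lowest FDR at Ifnar2, Rtp4, Usp18, Trim30a, Herc6 and Oas2. That of Mx1 had other values. Ddx58, which encodes RIG-I, had 6 higher and 3 lower sites, led by 0.523 against 0.179 with an FDR of 0.123 in the authors' deposited table. Zbp1, a sensor of Z-form nucleic acid, had 2 sites, both higher, 6190 bp upstream in a UTR of Pmepa1. Ifih1 (MDA5) and Dhx58 (LGP2) had none.

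Among the remaining effectors none had a region or a site past the threshold, and 9 had no listed site (Ifit1, Ifit3, Gbp2, Ifitm1, Ifitm2, Parp9, Ifi35, Xaf1 and Sp100). Ifitm3, a membrane protein that blocks virus entry, had the most listed sites. In a cluster of 29 sites over its UTR and coding sequence, the median level in the authors' deposited table was 0.290 against 0.571, and the lowest FDR was 0.173. Samhd1, which depletes nucleotides, had 17 higher sites in a UTR, with a median of 0.762 against 0.464 and a lowest FDR of 0.188 in the authors' deposited table. Rsad2 (viperin), with 7 sites, and its neighbour Cmpk2, a nucleotide kinase, with 5, were lower at every listed site. They share 3 of them, between the genes, led by 0.435 against 0.882 and an FDR of 0.192 in the authors' deposited table. Bst2 (tetherin) had 6 higher sites 4486 bp upstream, nearer to the gene Mvb12a. Ifit2 (2), Gbp3 (3), Parp14 (2) and Ifi44 (2) had only higher sites, and Dtx3l (4), the ligase partner of PARP9, only lower ones.

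Members were unevenly placed on the chromosomes. Chromosome 16 holds 8 of the 39, of which 7 had a listed site and 3 a region, and 6 of the 8 regions lie there. Among all autosomal genes on chromosome 16, 11.1% had a region and 70.7% a listed site. As a share of tested positions, estimated from the authors' row numbers, 0.856% were listed in the members' windows and 0.552% in the windows of all autosomal genes. With an FDR under 0.05 the shares were 0.11% and 0.109%. Of the 318 listed positions at members, 193 lay at Ifnar2, Rtp4, Ifnar1 and Ifitm3, and positions of the same cluster are not independent.

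Within the limit of 10000 bp, the farthest region counted was that of Oas2, 8518 bp from Oas3. Within 5000 bp, 5 members had a region, without Oas3. For members with no region counted, the nearest lies 24187 bp from Dtx3l, with 0.799 against 0.332 in the authors' deposited table. The next lies 25777 bp from Zbp1, with 0.731 against 0.286 in the authors' deposited table. Listed sites, by contrast, ran up to the limit, to 9964 bp from Ifnar2 and 9606 bp from Samhd1. Within 50000 bp, 38 members had a listed site and 22 a site with an FDR under 0.05. Shares of all genes are given within 10000 bp only, so the counts at 5000 and 50000 bp have no background.

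Other genes of the pathway were compared from a separate list of interferons, kinases, adaptors and further response genes. Of 54 found on autosomes, 5 had a region (9.26%), 31 a listed site (57.4%) and 15 a site with an FDR under 0.05, against 9.54%, 64.1% and 30.9% of all genes. The 5 were Tyk2, Tor3a, Mndal, Apobec3 and Usp25. Tyk2, the kinase bound to IFNAR1, had 1 higher and 1 lower region, at 0.488 and -0.33 (first minus second) per the authors' deposited table. Apobec3, a cytidine deaminase that restricts retroviruses, had a lower region, at 0.355 against 0.736 in the authors' deposited table. Tor3a, of the torsin ATPases, had a lower region at 0.318 against 0.886, and 44 of its 49 listed sites had an FDR under 0.05 in the authors' deposited table. Mndal, of the interferon-inducible p200 family, had 2 higher regions, and Usp25, a deubiquitinase, 1 lower region.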

How the data were processed

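Microglial DNA of 4 samples in 2 groups was bisulfite-sequenced with paired reads of 75 bp after 8 cycles of PCR, per the labels' protocols. Trim Galore, Bismark and the build mm10 are named in the submitters' processing notes. How the authors tested positions is not given in the sources used here. Per position and region, the authors deposited, per the file headers, levels, dispersions and posterior probabilities as fractions from 0 to 1, differences, standard errors and area scores as signed scores, and p-values with their FDR. No value per sample was given (0 such columns unused).

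Rows were assigned to genes of GENCODE M21 within 10000 bp (Python 3.11.15, pandas 2.3.3), and counting was tested on simulated data. No test was added: members were described beside all 20808 genes and the 500 protein-coding genes nearest in length. Of the listed sites at members, 78% lay on reference CpGs. Row numbers, which rise with position, served to estimate tested positions. All members with a region or a site past the FDR of 0.05 were named in full, others by counts. Members, lists and rules were chosen with earlier results of these data known. Alternatives covered distance, region size, FDR, reference CpGs, assignment and annotation. With 2 samples per group and no depth, intervals cover counting error only.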

Additional observations from a re-analysis of the deposited data

How the results depend on the processing

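Of 30 alternatives, 22 left the count within 1.5 times, or the share within its interval. The RefSeq gene extents, the nearest-gene setting for sites past the threshold and the setting without dense clusters were chosen after seeing the data. The number of members with a region, 6, was 14 within 50000 bp, 1 with regions of at least 10 cytosines (Rtp4) and 2 with regions that hold a site past the threshold (Ifnar2 and Rtp4). Members with a listed site, 24, numbered 38 within 50000 bp. Members with a site past the FDR of 0.05, 8, numbered 22 within 50000 bp and 5 under an FDR of 0.001. A wider window admits more rows and stricter limits fewer, by construction. No share of all genes is given for these altered counts. The share of higher sites, 71.1%, was 55.6% by cluster and 62.6% without the dense clusters at Ifnar2 and Rtp4. No paired analysis was possible because only fitted group values were deposited, and therefore the coverage minimum and leaving out each replicate were not run.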
